A study of Mus musculus with 4 samples.

Results

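Imprinted genes, which are transcribed mainly or only from the copy inherited from the mother or from the father, were followed in single mouse embryonic stem cells (mESC). The 35 genes were taken by symbol from a list that was chosen with earlier results of these data known. All 35 were present among the 32285 genes of the matrix. The list labels 19 of the 35 as paternally expressed and 16 as maternally expressed, and whether these labels hold in mESC was not tested. Together the genes lie in 17 imprinted domains, with 15 of them on chromosome 7. The cells were the male mESC line E14tg2a.4, either wild-type (WT) or Srrm2 hKO, a gene-trap line derived from it with 1 truncated copy of Srrm2, which encodes a splicing factor. The hKO is a single line (CG0630), so genotype and clone cannot be told apart. All cells were kept with leukemia inhibitory factor (LIF), the cytokine that holds mESC in self-renewal. The labels describe 2 samples of each genotype, and the barcodes carry a library number from 1 to 4 that nothing ties to a labelled sample. The genotypes could therefore not be compared, the libraries are described by number, and no p-value is given.

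Imprinting is set in the germ line, where a differentially methylated region, the imprinting control region, receives DNA methylation in only the egg or only the sperm. After fertilisation the mark is kept through the genome-wide loss of methylation by proteins such as ZFP57, which binds the methylated hexamer TGCCGC and recruits TRIM28 and histone and DNA methyltransferases. Many imprinted genes act on growth, with paternally expressed genes such as Igf2 often promoting it and maternally expressed genes such as Igf2r, Grb10 and Cdkn1c often restraining it. Imprints are known to vary between lines and passages of mESC. The files count transcripts of both alleles together, so the allele of origin was not read here and no gain or loss of an imprint was tested.

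For 5 of the 6 genes that parted the libraries (below), 1 promoter window is shown, chosen because it holds the ZFP57 hexamer. They are RefSeq windows on GRCm38.p6, of 250 bases before and 50 after an annotated start, with TGCCGC or its reverse complement GCGGCA in capitals.

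Mest (chr6:30737803-30738102, plus strand): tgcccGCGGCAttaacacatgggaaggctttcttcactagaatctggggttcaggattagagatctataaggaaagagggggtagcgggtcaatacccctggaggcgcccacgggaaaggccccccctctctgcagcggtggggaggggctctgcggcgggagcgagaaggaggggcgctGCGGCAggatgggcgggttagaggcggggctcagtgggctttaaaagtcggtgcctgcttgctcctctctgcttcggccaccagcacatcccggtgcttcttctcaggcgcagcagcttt
Zdbf2 (chr1:63200108-63200407, plus strand): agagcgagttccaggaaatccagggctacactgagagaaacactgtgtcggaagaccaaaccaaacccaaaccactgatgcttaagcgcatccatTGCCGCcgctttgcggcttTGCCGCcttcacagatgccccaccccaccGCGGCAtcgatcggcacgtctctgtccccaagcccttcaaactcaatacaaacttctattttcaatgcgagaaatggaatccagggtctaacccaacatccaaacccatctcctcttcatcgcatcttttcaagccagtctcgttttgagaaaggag
Nnat (chr2:157559828-157560127, plus strand): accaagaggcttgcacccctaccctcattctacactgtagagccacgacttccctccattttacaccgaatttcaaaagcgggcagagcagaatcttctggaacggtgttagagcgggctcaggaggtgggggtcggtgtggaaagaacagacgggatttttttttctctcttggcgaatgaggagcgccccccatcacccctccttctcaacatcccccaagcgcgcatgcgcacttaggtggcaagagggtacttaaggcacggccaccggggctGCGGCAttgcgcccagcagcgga
Plagl1 (chr10:13090582-13090881, plus strand): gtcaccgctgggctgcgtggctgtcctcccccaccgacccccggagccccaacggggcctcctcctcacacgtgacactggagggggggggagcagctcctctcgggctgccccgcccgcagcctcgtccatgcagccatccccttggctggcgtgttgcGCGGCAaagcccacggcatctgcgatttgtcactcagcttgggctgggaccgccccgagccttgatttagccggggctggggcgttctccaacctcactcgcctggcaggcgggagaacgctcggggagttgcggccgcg
Igf2 (chr7:142661222-142661521, minus strand): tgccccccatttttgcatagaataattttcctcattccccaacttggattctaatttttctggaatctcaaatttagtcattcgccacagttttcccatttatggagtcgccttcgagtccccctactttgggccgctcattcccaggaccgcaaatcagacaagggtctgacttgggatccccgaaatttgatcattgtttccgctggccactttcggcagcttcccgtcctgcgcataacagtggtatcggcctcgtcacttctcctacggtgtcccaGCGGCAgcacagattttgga

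The Zdbf2 window shown held 3 hexamers and that of Mest 2, while those of Nnat, Plagl1 and Igf2 held 1 each. The Zdbf2 window shown belongs to a start upstream of the gene span given below, and the window at that span's own start held none. Of the 4 windows of Igf2 the other 3 held none, as did 1 of the 3 windows of Mest and the only window of Dlk1. Counting every window of the 6 genes, 6 of 12 held the hexamer, and 2 of these are overlapping windows of Mest. RefSeq windows were found for 29 of the 35 genes, in 45 windows, some of which overlap, and 11 of the 45 windows (24.4%) held the hexamer, compared with 11.6% of all 32851 windows. The hexamer holds a CpG. The 45 windows had a median of 14 CpG and 58.0% GC, compared with 7 and 52.7% in all windows, and were not matched for this. The median ratio of observed to expected CpG was 0.605 in the 45 windows and 0.384 in all windows. By expressed allele this ratio was 0.469 in 26 windows of paternally expressed genes and 0.717 in 19 windows of maternally expressed genes. A match in these letters is a description of the sequence and does not show that ZFP57 was bound.

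The published cell filter, applied again to the deposited matrix, left 31989 of 41142 barcodes, between 7464 and 8514 in a library, with 166839268 to 200180473 UMIs (unique molecular identifiers, each counted as 1 transcript). The number of cells kept is slightly larger than the published one, and the cause was not found. Levels are UMIs per 1000000 UMIs of the kept cells (CPM), with exact 95% Poisson intervals that cover counting error only. For counting genes and for ranges, counts under 3 were taken as 3, which in a library corresponded to 0.0150 to 0.0180 CPM. The level of Srrm2 was 387, 533, 238 and 356 CPM in libraries 1, 2, 3 and 4. Markers of embryonic stem cells summed to 2004, 1918, 1530 and 1525 CPM in libraries 1 to 4, and so were lower in libraries 3 and 4. The formative list (Otx2, Fgf5, Pou3f1, Dnmt3b and Utf1) summed to 708, 1077, 789 and 1440 CPM. Of its 5 genes, 3 were at least 2-fold higher in libraries 2 and 4 than in libraries 1 and 3, beside 2.75% of all genes. The keratin-high list (Krt8, Krt18, Acta2 and Tagln) summed to 65.3, 45.4, 894 and 263 CPM. All 4 of its genes were at least 2-fold higher in libraries 3 and 4 than in libraries 1 and 2. This held for 1.83% of all genes, a share that also stands beside the counts of the lists that follow. Fibroblast markers summed to 2.19, 5.33, 10.7 and 6.64 CPM, with Lum at 0 in 3 of the 4 libraries, and 1 of the 4 that passed the count minimum parted libraries 3 and 4 from libraries 1 and 2. Primitive endoderm markers summed to 1.04, 1.39, 4.79 and 3.61 CPM, and 2 of the 5 parted the libraries in the same way. The sum over trophectoderm and placenta markers was 48.7, 45.7, 35.6 and 25.1 CPM, although 2 of the 4 that passed the count minimum were higher in libraries 3 and 4. Between 11 and 26 cell barcodes were shared by any pair of libraries.

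A small set of paternally expressed genes parted libraries 3 and 4 from libraries 1 and 2. A gene was counted when the lower library of one pair was at least 2-fold above the higher library of the other pair, with at least 100 counts in all, a minimum that all 35 genes passed. By this rule 6 of the 35 genes (17.1%) were higher in libraries 3 and 4, namely Mest, Igf2, Nnat, Plagl1, Zdbf2 and Dlk1, compared with 1.83% of the 15822 genes over the count minimum. No imprinted gene was lower in libraries 3 and 4, beside 0.183% of all genes. The 6 genes were 6 of the 19 paternally expressed and none of the 16 maternally expressed genes, but this split rests on the limit. The maternally expressed H19 was just under 2-fold and was counted with all barcodes, with no mitochondrial limit and with size factors. Without library 2, a setting that can add genes but not remove them, 12 genes were counted, among them the maternally expressed Cdkn1c, H19 and Zim1. The share of all genes in these settings is not given. Without the cells of cluster 5 (below), chosen after seeing the data, only Mest was counted. The count of 6 compares 4 libraries and has no replicate test. The list was chosen with earlier results of these data known, so the contrast with all genes is not independent of them. Of 25 other imprinted genes over the count minimum, none was higher in libraries 3 and 4 by this rule.

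Mest (ENSMUSG00000051855; GRCm38, chr6:30723547-30748465, plus strand), which encodes a hydrolase-fold protein of the endoplasmic reticulum and is expressed in embryonic mesoderm, stood furthest apart. Its 161 and 232 counts in libraries 1 and 2 amounted to 0.965 CPM (0.822 to 1.13) and 1.16 CPM (1.02 to 1.32). In library 3 it reached 6449 counts, or 37.4 CPM (36.5 to 38.3), and in library 4 it reached 7062 counts, or 40.6 CPM (39.6 to 41.5). The lower of these was 32.3-fold above the higher of the first pair, the largest such ratio among the 15822 genes. Copg2, a coat protein gene that overlaps the 3′ end of Mest on the other strand, was at 28.8, 19.7, 25.6 and 19.4 CPM and did not follow Mest.

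Igf2 (ENSMUSG00000048583; chr7:142650766-142666816, minus strand), the insulin-like growth factor that drives fetal growth, was rare in every library, with 38, 58, 600 and 297 counts. This gave 0.228 and 0.290 CPM in libraries 1 and 2, 3.48 CPM (3.21 to 3.77) in library 3 and 1.71 CPM (1.52 to 1.91) in library 4. Libraries 3 and 4 were thus 5.89-fold or more above the others. A single cell held 14 of the 38 counts of library 1, and in library 2 a single cell held 19 of the 58. The intervals take each count as independent, so for such a gene they are too narrow. H19, the non-coding RNA that shares enhancers with Igf2 and is expressed from the opposite allele, had 3, 18, 31 and 185 counts and fell just short of the 2-fold limit. A single cell of library 4 held 41 of its 185 counts.

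Nnat (ENSMUSG00000067786; chr2:157560078-157562522), a proteolipid of the endoplasmic reticulum, was at 0.492, 0.570, 3.20 and 3.56 CPM, a gap of 5.61-fold between the pairs. In library 1 a single cell held 18 of its 82 counts. Dlk1 (ENSMUSG00000040856; chr12:109452823-109463336), a membrane protein related to the Notch ligands, was at 0.545, 1.20, 3.13 and 3.43 CPM, a gap of 2.61-fold. Plagl1 (ENSMUSG00000019817; chr10:13060504-13131694), a zinc-finger transcription factor, had only 5, 19, 56 and 48 counts, a gap of 2.91-fold.

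Zdbf2 (ENSMUSG00000027520; chr1:63273265-63314576), a gene for a zinc-finger protein, was the most abundant of the 6. Libraries 1 and 2 gave 28.3 CPM (27.5 to 29.1) and 38.3 CPM (37.4 to 39.2), and libraries 3 and 4 gave 99.9 CPM (98.4 to 101.4) and 117.5 CPM (115.9 to 119.1). The gap between the pairs was 2.61-fold. As for Mest, it was wider than the counting intervals, which do not cover differences between cultures.

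**Figure D1:**
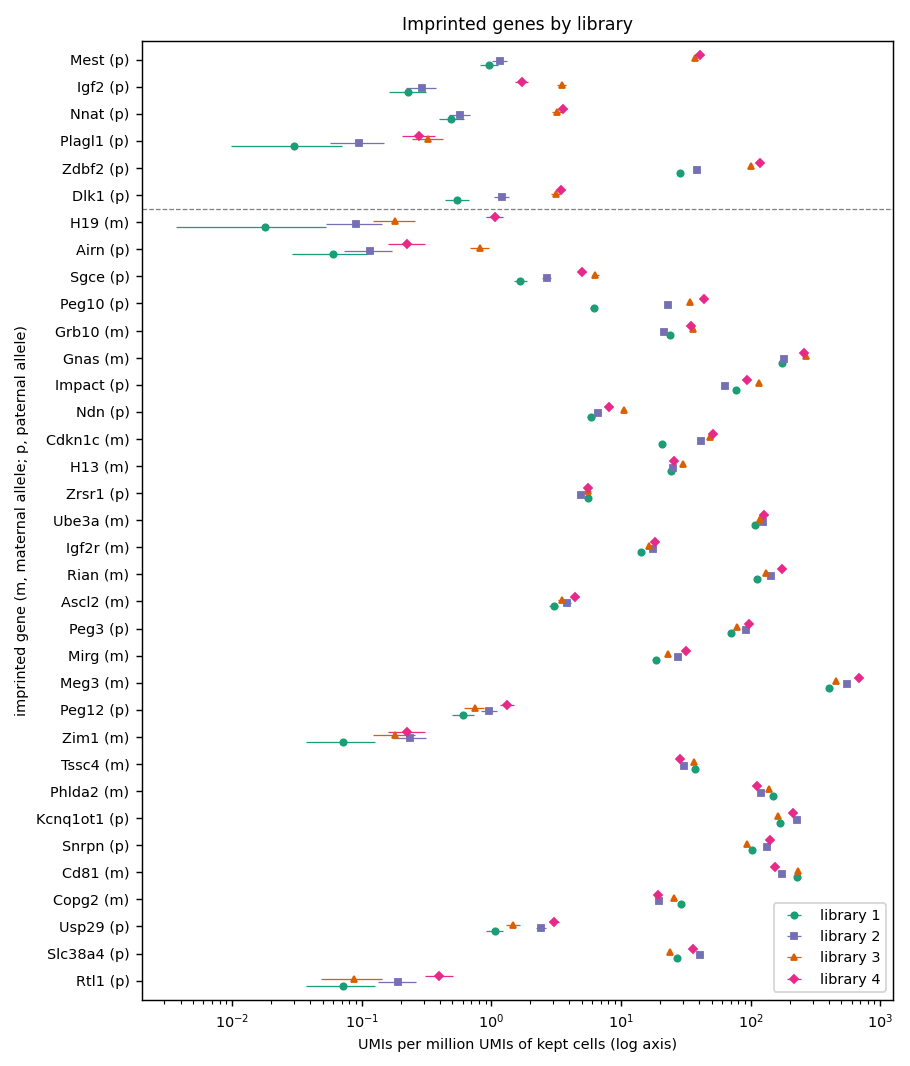
Level of each of the 35 imprinted genes in libraries 1 to 4, in CPM on a log axis, with bars for the 95% Poisson interval and letters for the expressed allele. Genes are sorted by the lower of libraries 3 and 4 over the higher of libraries 1 and 2, and the 6 above the dashed line reach 2-fold, with Mest at 32.3-fold on top.

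Next to the limit stood Airn, the long antisense RNA that silences Igf2r, with 10, 23, 140 and 39 counts and a gap of 1.95-fold, and Sgce, which encodes a sarcoglycan, at 1.67, 2.66, 6.32 and 5.03 CPM with a gap of 1.89-fold. Peg10, a retrotransposon-derived gene that starts beside Sgce, was at 6.14, 23.1, 34.3 and 43.7 CPM. Grb10, an adaptor that dampens insulin receptor signalling, was at 24.0, 21.5, 36.2 and 34.4 CPM. Gnas, which encodes the stimulatory G-protein subunit, was at 174.9, 181.7, 268.8 and 255.8 CPM. Impact, a regulator of translation, was at 77.1, 63.8, 115.7 and 94.1 CPM, and Ndn, a MAGE-family protein, at 5.86, 6.59, 10.5 and 8.02 CPM. In these 7 genes libraries 3 and 4 were both above libraries 1 and 2, with the lower of the first pair less than 2-fold above the higher of the second. Without the cells of cluster 5 (below), chosen after seeing the data, this order was kept by 1 of the 7, Impact, and in the other 6 library 3 fell below library 2. Grb10 was then at 18.9, 21.4, 16.2 and 33.7 CPM and Peg10 at 3.71, 22.5, 14.6 and 40.4 CPM.

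Meg3, a maternally expressed non-coding RNA of the Dlk1-Meg3 domain, had the most counts of the 35 genes in every library. It was at 399, 554, 459 and 684 CPM in libraries 1 to 4. Of the other maternal non-coding RNAs there, Rian, which hosts small nucleolar RNAs, was at 112, 143, 132 and 173 CPM, and Mirg, which hosts microRNAs, at 18.7, 27.6, 22.9 and 31.7 CPM. All 3 were ordered as library 1, 3, 2 and 4 from the lowest to the highest. Dlk1, the paternally expressed coding gene of the same domain, did not share this order over all kept cells. Without the cells of cluster 5 (below), chosen after seeing the data, Dlk1 was at 0.259, 1.17, 1.09 and 3.44 CPM, which is this order. Rtl1, the other paternally expressed gene there, had 12, 38, 15 and 69 counts, also in this order. Its gap between libraries 2 and 4 and libraries 1 and 3 was 2.18-fold. It alone of the 35 genes was at least 2-fold higher in libraries 2 and 4, beside 2.75% of all genes. None was lower in this pairing, beside 1.67% of all genes.

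In the Kcnq1ot1 domain of chromosome 7, Kcnq1ot1, the paternal non-coding RNA that silences its neighbours, was at 168, 227, 162 and 212 CPM. Its maternally expressed neighbours differed among themselves. Cdkn1c, a cyclin-dependent kinase inhibitor, was at 20.6, 41.1, 48.6 and 50.9 CPM, lowest in library 1. Without the cells of cluster 5 (below), chosen after seeing the data, it was at 17.5, 40.6, 23.1 and 49.5 CPM. Phlda2, which limits placental growth, was at 148, 120, 139 and 112 CPM. Cd81, a tetraspanin, was at 227.3, 173.6, 231.6 and 153.8 CPM and Tssc4 at 37.2, 30.4, 36.4 and 28.4 CPM, and all 3 of these were lower in libraries 2 and 4. Without the same cells of cluster 5, Cd81 was at 227.4, 172.5, 175.0 and 149.7 CPM, with library 3 close to library 2. Phlda2 and Tssc4 then changed little.

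Of the remaining genes over 10 CPM, Snrpn, a spliceosomal protein gene, was at 101.7, 134.6, 94.3 and 141.2 CPM, and Ube3a, a ubiquitin ligase gene that lies in the same domain, at 108.7, 123.9, 118.2 and 126.3 CPM. Snurf shares its transcript with Snrpn and had no counts in any library. Peg3, a zinc-finger gene, was at 70.7, 92.8, 79.0 and 96.9 CPM, and Slc38a4, an amino acid transporter gene, at 26.9, 40.8, 23.7 and 36.0 CPM. Igf2r, the receptor that clears IGF2, was at 14.2, 17.6, 16.5 and 18.4 CPM, and H13, a signal peptide peptidase gene, at 24.3, 25.0, 30.2 and 25.6 CPM. The flattest of all was Zrsr1, a splicing-related retrogene, with 4.88 to 5.53 CPM and a range of 1.14-fold. Ascl2, Peg12, Usp29 and Zim1 stayed under 5 CPM, with 129 (Zim1) to 2642 (Ascl2) counts in all.

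The highest library was at least 2-fold above the lowest for 15 of the 35 genes (42.9%), compared with 31.2% of all genes, and the median range was 1.72-fold compared with 1.57-fold over all genes. Library 1 was the lowest for 25 of the 35 genes (71.4%), compared with 43.4% of all genes, and for 22 (62.9%) compared with 28.9% with size factors. Among 37 other imprinted genes in the matrix, 25 passed the count minimum and none parted libraries 3 and 4 from libraries 1 and 2, beside 1.83% of all genes. Magel2, with 27, 179, 35 and 256 counts, and Calcr, with 64, 222, 89 and 476 counts, were higher in libraries 2 and 4, beside 2.75% of all genes. Calcr was also among the leading genes of cluster 3 (below), which was made of cells of these libraries. Of 15 genes that maintain or erase imprints, none parted libraries 3 and 4, again beside 1.83%. In lists this short a count of 0 differs little from that share. Only Dnmt3b, a de novo DNA methyltransferase, was higher in libraries 2 and 4, beside 2.75%, at 79.5, 393, 146 and 586 CPM. Zfp57 was at 132, 116, 108 and 70.5 CPM, the lowest level being in library 4.

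The cells were next clustered without using any of the listed imprinted genes, so that their levels could be compared among cells of like state. The 5 clusters with at least 2% of cells separated libraries 1 and 3 from libraries 2 and 4. Cluster 1 held 94.2% of library 1 and 73.4% of library 3. Cluster 5 was made of 2048 cells of library 3 (25.9% of it) and 444 of library 1, with 19 and 74 cells of libraries 2 and 4. Its leading genes included Gzme, Ctla2a and Acta2, and the keratin-high list summed to 2545 CPM there compared with 13.0 CPM in cluster 1. Cluster 2 held 81.1% of library 2, cluster 3, led by Spon1 and the formative marker Fgf5, held 1532 cells of library 2 and 3593 of library 4, and cluster 4 was almost wholly library 4 (99.3%). A cluster that is mostly of 1 library may be that library and not a cell state.

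Leaving out the cells of cluster 5, an alternative chosen after seeing the data, set Mest apart from the other 5 genes. Without these cells Mest was at 0.882, 1.16, 33.3 and 40.5 CPM, still 28.7-fold apart, and it was the only imprinted gene counted, beside 0.0645% of 15505 genes. Igf2 was then at 0.0584, 0.190, 0.222 and 0.657 CPM, and Zdbf2 at 18.6, 37.8, 58.4 and 116.0 CPM. Dlk1 was at 0.259, 1.17, 1.09 and 3.44 CPM, and Nnat at 0.370, 0.571, 0.931 and 3.44 CPM. In these 4 genes library 3 moved down toward or below the level of library 2, while library 4 was highest and library 1 lowest. Plagl1, with 93 counts left, passed the minimum no longer, and its gap was 1.88-fold.

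Because libraries 1 and 3 shared their clusters, and libraries 2 and 4 shared cluster 3, library 3 was also set against library 1 and library 4 against library 2. This rule was likewise added after the values were seen. Mest was 38.8-fold (33.2 to 45.6) higher in library 3 than in library 1 and 35.0-fold (30.7 to 40.1) higher in library 4 than in library 2. Zdbf2 was 3.53-fold and 3.07-fold higher, Nnat 6.50-fold and 6.26-fold, Igf2 15.3-fold and 5.89-fold, Dlk1 5.73-fold and 2.86-fold, and Plagl1 10.8-fold and 2.91-fold. With H19, at 10.0-fold and 11.8-fold, 7 of the 35 genes were at least 2-fold higher in both, beside 3.94% of all genes, and none was lower in both, beside 0.714%. Any gene that met the first rule must also meet this one. The 6 genes counted before were therefore bound to pass, and H19 is the only gene added.

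Without the cells of cluster 5, 6 of the 33 genes over the minimum stayed at least 2-fold higher in both, beside 1.11% of all genes. Mest, which met the first rule without these cells, was bound to be among them. Zdbf2 was then 3.13-fold and 3.07-fold (2.99 to 3.15) higher, and Mest 37.8-fold and 34.9-fold. Igf2 was 3.80-fold (1.73 to 9.23) and 3.45-fold (2.37 to 5.12) higher, Dlk1 4.21-fold and 2.94-fold, and Nnat 2.52-fold and 6.03-fold. Plagl1, under the count minimum, was 5.53-fold (2.03 to 18.8) and 2.93-fold (1.69 to 5.28) higher. For Dlk1 the ratio of library 4 to library 2 was smaller inside clusters, at 1.35 (1.13 to 1.63) in cluster 3, where it is high and which held more of library 4 than of library 2, and 1.42 (0.285 to 4.31) in cluster 2. H19 was 3.07-fold higher with an interval of 0.701 to 18.4, which includes no difference, and 6.90-fold (4.16 to 12.1) higher. Peg10 was 3.93-fold and 1.80-fold higher, whereas Meg3 (1.02-fold and 1.24-fold), Kcnq1ot1 (0.948-fold and 0.935-fold) and Zrsr1 (1.01-fold and 1.12-fold) lay near 1.

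**Figure D2:**
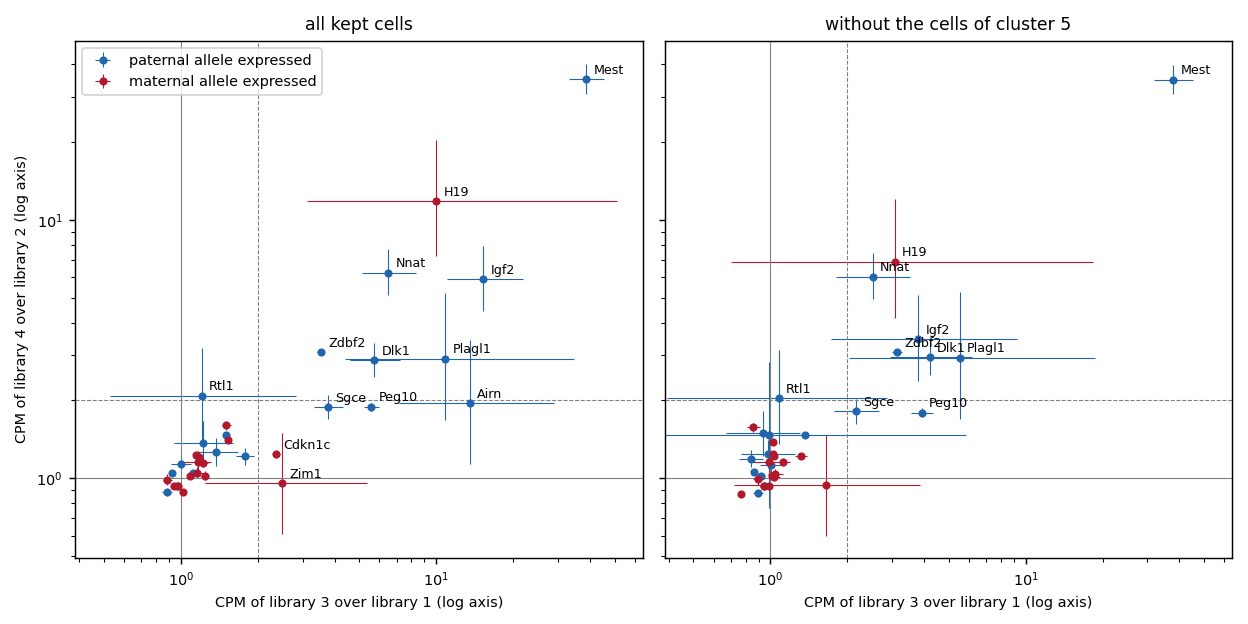
Ratio of the CPM of library 3 to library 1 against that of library 4 to library 2 for the 35 genes, on log axes with 95% intervals, over all kept cells on the left and without cluster 5 on the right. Dashed lines mark 2-fold, and Mest keeps ratios of 37.8 and 34.9 in the right panel while most genes gather near 1.

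Within single clusters Mest differed by library and little by cluster. In cluster 1 its level was 0.883 CPM for library 1 and 33.4 CPM for library 3, a ratio of 37.8 (31.8 to 45.1). In cluster 5 the ratio of the same libraries was 23.2 (15.7 to 35.9). Between libraries 2 and 4 it was 41.5 (30.7 to 57.4) in cluster 3 and 25.7 (20.5 to 32.1) in cluster 2, where library 4 had 280 cells. Inside one library the highest cluster exceeded the lowest by 2.25-fold in library 1, where cluster 5 gave 25 counts, by 1.06-fold in library 2, by 1.38-fold in library 3 and by 1.52-fold in library 4.

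Igf2 differed between clusters 1 and 5 more than between libraries 1 and 3. In library 3, 574 of its 600 counts came from cluster 5, at 10.4 CPM compared with 0.224 CPM in cluster 1, a ratio of 46.5. In library 1 the same clusters gave 2.30 and 0.0585 CPM. Library 3 was above library 1 inside both. The ratio was 4.51 (3.11 to 6.79) in cluster 5 and 3.82 (1.74 to 9.28) in cluster 1. Library 4 was above library 2 by 2.29-fold (1.37 to 4.04) in cluster 3. In cluster 2 Igf2 had 19 counts in library 2 and 0 in the 280 cells of library 4, a ratio of at most 7.38. These intervals take each count as independent and are too narrow for Igf2, with many counts in a few cells. In library 4, 113 of its 297 counts were left without the 74 cells of cluster 5. Airn also had most of its counts of library 3 in cluster 5, 137 of 140. Inside clusters its ratio of library 3 to library 1 was 5.20 (2.33 to 14.4) in cluster 5 and 0.662 (0.0599 to 4.62) in cluster 1, from 2 and 4 counts. The keratin-high genes are highest in that cluster too, and the fibroblast markers summed there to 30.3 CPM and the primitive endoderm markers to 12.2 CPM, compared with 1.22 and 1.00 CPM in cluster 1. Their part in these levels was not tested.

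Zdbf2 varied in both ways. Libraries 1 and 3 had 18.6 and 58.3 CPM in cluster 1, and 146.6 and 187.9 CPM in cluster 5. Libraries 2 and 4 had 19.8 and 81.4 CPM in cluster 2, and 112.5 and 159.8 CPM in cluster 3. The ratio between libraries was thus 3.13 and 4.12 in clusters 1 and 2, where the gene was low, and 1.28 and 1.42 in clusters 5 and 3, where it was high. Impact was higher by nearly the same ratio in all 4 such comparisons, at 1.37 (cluster 1), 1.38 (cluster 5), 1.40 (cluster 3) and 1.38 (cluster 2).

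Clusters 3 and 5 also shared high levels of several genes, of which Dlk1 parted libraries 3 and 4 from libraries 1 and 2 by the 2-fold rule and Grb10 and Gnas did not. Grb10 was at 51.0 and 53.5 CPM in cluster 3 and at 86.7 and 78.5 CPM in cluster 5, compared with 13.0 to 18.9 CPM in clusters 1, 2 and 4. Gnas was at 324.3 to 496.8 CPM in clusters 3 and 5 and at 145.4 to 161.1 CPM elsewhere. Dlk1 was at 4.05 to 7.44 CPM in clusters 3 and 5 and at 0.260 to 1.22 CPM elsewhere. Meg3 was highest in cluster 3, at 918.9 and 863.6 CPM. By contrast Slc38a4 was lower in clusters 3 and 5 than in the other clusters of the same library, for example at 24.7 compared with 44.7 CPM (cluster 2) in library 2. Between clusters of one library Kcnq1ot1 and Zrsr1 differed by at most 1.25-fold and 1.30-fold.

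**Figure D3:**
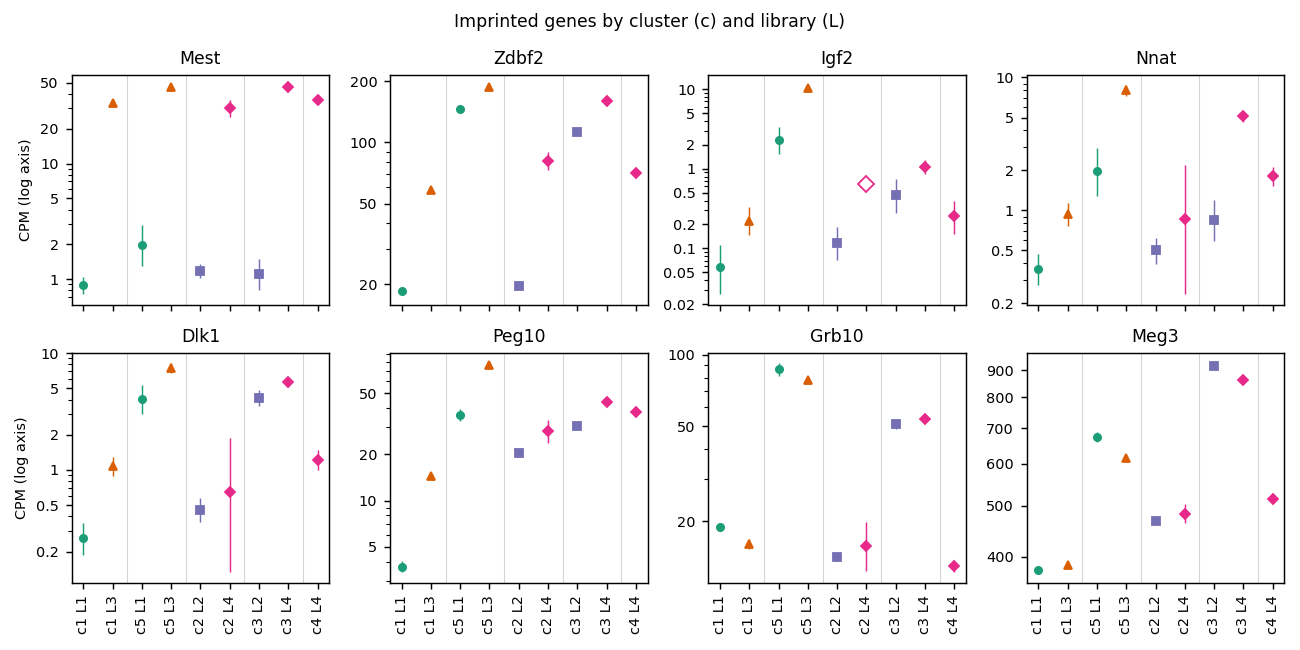
CPM of 8 imprinted genes, on log axes, in each cluster (c) of each library (L) with at least 100 cells there, with 95% Poisson intervals. An open symbol marks a count of 0 drawn at 3 counts, and Mest separates by library in clusters 1, 2, 3 and 5, where a pair of libraries can be compared, whereas Grb10 and Meg3 separate by cluster.

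The spread of counts over cells was described by the share of cells with at least 1 UMI. All kept cells were first thinned to 5000 UMIs, a depth that every kept cell reached. Mest was then detected in 0.542%, 0.458%, 15.2% and 17.1% of cells of libraries 1 to 4, and in 1.48%, 1.81%, 46.2% and 51.2% before thinning. These shares were 0.980, 0.869, 0.929 and 0.953 of those that a Poisson distribution with the same mean gives, with intervals of 0.881 to 0.979 in library 3 and 0.906 to 1.002 in library 4. Thinned to 10000 UMIs, which left out 228 and 274 cells of these libraries, they were 0.910 (0.877 to 0.943) and 0.891 (0.859 to 0.923), so the Mest counts there were spread over cells slightly less evenly than sampling gives. In libraries 3 and 4, 12.6% and 14.3% of its UMIs lay in cells with 5 or more. No cell type known to lack these genes was present, so the part of free RNA in these shares was not measured in any library, and cells with a UMI are not called cells expressing the gene.

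Igf2 was uneven. It was found in 1.13% of cells of library 3 and 0.509% of library 4 at the thinned depth, 0.680 (0.547 to 0.836) and 0.578 (0.410 to 0.793) of the Poisson share. In library 3, 31 cells with 5 or more UMIs held 42.0% of all Igf2 UMIs, and single cells reached 26 UMIs. Zdbf2 was detected in 10.3%, 13.4%, 31.4% and 39.1% of cells, at 0.797 to 0.881 of the Poisson share. Nnat in library 3 was at 0.778 (0.613 to 0.974) and Cdkn1c in library 3 at 0.766 (0.727 to 0.805). Impact, by contrast, lay between 0.934 and 0.971 in the 4 libraries. For comparison Krt8, the keratin gene, was at 0.212 to 0.555, and Zfp42, a naive pluripotency marker, at 0.690 to 0.927. This ratio depends on the level of a gene as well as on its spread, so the values do not rank genes by evenness.

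**Figure D4:**
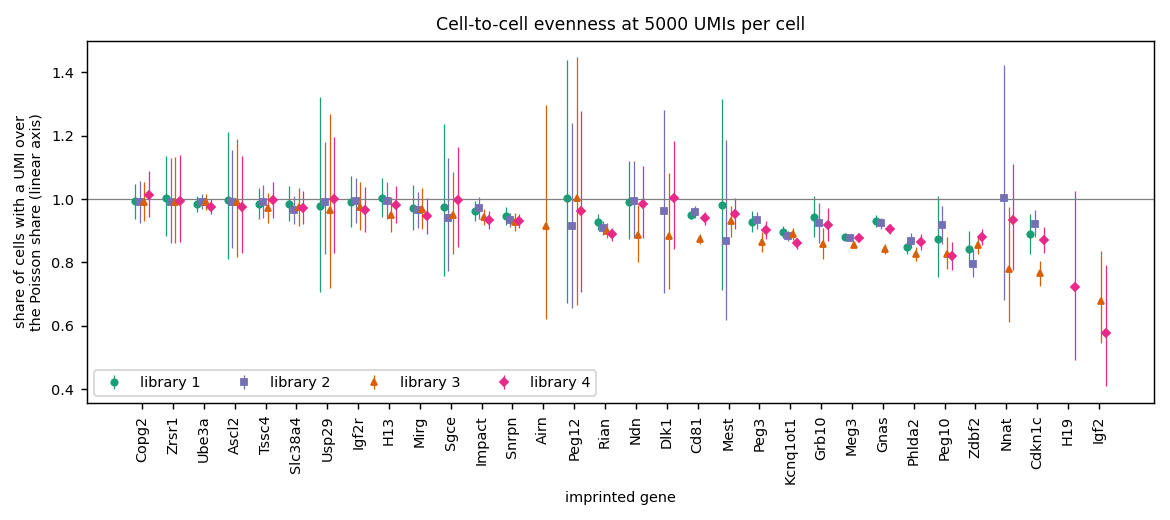
Share of cells with a UMI at 5000 UMIs per cell, divided by the Poisson share for the same mean, for imprinted genes found in at least 20 cells of a library, with bars from the exact 95% binomial interval of the share. A value of 1 means that as many cells held a UMI as sampling gives. The value depends on the level as well as on the spread, and is drawn toward 1 for rare genes. Igf2 in libraries 3 and 4 lies lowest, at 0.680 and 0.578.

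Pairs of genes were also compared for the number of cells in which both were found, relative to the number that their shares give. The median ratio of observed to expected cells with both genes was 1.00, 1.04, 1.07 and 1.07 for pairs of one domain in libraries 1 to 4, and 1.02, 1.02, 1.03 and 1.03 for pairs of different domains. The RNAs of the Dlk1-Meg3 domain were above 1 in all 4 libraries, with Rian and Mirg together at 1.26, 1.21, 1.26 and 1.20. Meg3 and Rian together were at 1.10, 1.09, 1.14 and 1.09, and these genes also shared their high level in cluster 3. Peg10 and Sgce, which start side by side, were together 2.43 times as often (1.85 to 3.14) in library 3 and 1.78 times (1.30 to 2.39) in library 4, where both are high in cluster 5 or 3. Kcnq1ot1 was found with Phlda2, which it silences on the paternal copy, at ratios of 0.971 to 0.990, close to independence. A pair from different domains, Grb10 and Zdbf2, reached 1.26 to 1.86.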

How the data were processed

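Single-cell libraries (10x Chromium 3′ v3) of 2 WT and 2 Srrm2 hKO mESC cultures were mapped by the authors to mm10 with Cell Ranger 6.1.2, expecting 10000 cells per library. The authors aggregated the 4 libraries into one matrix with default settings, which subsample reads to match the mapped reads per cell between libraries. UMIs were not thereby made equal, and the kept cells had medians of 18380 to 21900. The deposited matrix holds UMI counts from that step, as whole numbers with no further scaling, for 32285 genes and 41142 barcodes. Cell Ranger counts reads on the sense strand of a gene, which separates overlapping genes of opposite strands such as Mest and Copg2, while Snrpn and Snurf share exons. Every deposited file was used.

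Following the study's stated filter, cells were kept with UMIs and genes no lower than 1 SD under the library mean and at most 10% mitochondrial UMIs. Counts were summed per library and divided by the library total (CPM). No doublet caller was run, and leaving out cells above 2 times the median UMI count was an alternative. Intervals are exact Poisson, conditional binomial (ratios) or Clopper-Pearson (shares), at 95%. Cells were thinned to 5000 UMIs (10000 as an alternative) by hypergeometric draws. Clustering used 2000 variable genes without the listed imprinted genes, 20 components, 20 neighbours and Leiden (leidenalg 0.10.2) at resolution 0.2, without batch correction, with Python 3.11.15, numpy 2.4.6, scipy 1.17.1 and R 4.3.3. The rule and the intervals were tried on simulated Poisson counts without variation between cells or cultures. That trial does not show how they behave for counts gathered in a few cells, as here for Igf2 and H19. Gene positions follow GENCODE on GRCm38.

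Genes were named with values in every library when counted in one of the pairings or when at 10 CPM or more in any library. This gave 27 of the 35, and H19, Airn and Sgce, near the 2-fold limit, were given as well. The members, lists and pairings were chosen with earlier results of these data known.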

Additional observations from a re-analysis of the deposited data

How the results depend on the processing

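The number of imprinted genes at least 2-fold higher in libraries 3 and 4 was 6, and it was 6 or 7 with all barcodes, with no mitochondrial limit, with median-of-ratios size factors, with per-cell CPM, without cells above 2 times the median UMI count and with a count minimum of 20, the added gene being H19. A count minimum of 500 left 5, without Plagl1. At a limit of 1.5-fold 9 were counted, with Airn, H19 and Sgce added. The minimum of 20 could not change the count, because every gene of the list had passed the higher minimum. At a limit of 3-fold 3 were left (Igf2, Mest and Nnat). Leaving out each library in turn gave 6 to 12, the highest without library 2. There Airn, Cdkn1c, H19, Peg10, Sgce and Zim1 were added, of which Cdkn1c, H19 and Zim1 are maternally expressed. In either pairing, leaving out a library can add genes to the count but cannot remove one, whereas a 2-fold range can only be lost. These settings therefore do not test whether a counted gene holds. Without the cells of cluster 5, chosen after seeing the data, 1 was left (Mest). The number lower in libraries 3 and 4 was 0 under each of these. The number higher in libraries 2 and 4 was 1, it became 2 at 1.5-fold and 2 without cluster 5, 0 at 3-fold and 0 with a minimum of 500, and 1 to 7 with a library left out, the highest without library 3. The number lower in libraries 2 and 4 was 0, and 0 to 2 with a library left out. The number with a 2-fold range was 15. It became 24 at 1.5-fold, 12 at 3-fold and 10 with a minimum of 500, and was 11 to 15 with a library left out. For the alternatives the share of all genes is not given, except for genes higher in libraries 3 and 4 without cluster 5 (above). Another limit or a library left out can change that share too. These counts therefore describe the list and are not read as particular to imprinted genes. Size factors raised the levels of library 1 by 0.13 on the log2 scale relative to total UMIs and the others by less than 0.1 in size. They moved the fold between the highest and lowest library beyond its counting interval for 17 of 27 named genes, and leaving out cluster 5 did so for 18. Thinning to 10000 in place of 5000 UMIs moved 29 of 96 shares of cells relative to the Poisson share, a ratio that itself depends on depth. The cause was not tested. No paired analysis was possible because no library could be tied to a numbered sample, and the setting of library 3 against 1 and library 4 against 2 rests on shared clusters, not on replicate numbers.

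Depth limits Plagl1, Rtl1, H19, Airn and Zim1, which had 128 to 237 counts in all, so that their ratios carry wide intervals. With 4 libraries of unknown genotype, differences of culture, passage, clone and genotype cannot be told apart.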

Other observations

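A pair of small clusters was drawn from all 4 libraries and is given with counts pooled. In cluster 6, of 108 cells led by Aqp3 and Bhlhe41, Igf2r was at 87.2 CPM (72.2 to 104.4) compared with 16.6 CPM in the other cells, and Impact at 209.1 CPM compared with 86.6 CPM. Meg3 was at 189.1 CPM there compared with 527.1 CPM, and Phlda2 at 39.2 CPM compared with 129.7 CPM. These cells had a median of 11650 UMIs. In cluster 7, of 52 cells with two-cell-like markers at 316.6 CPM, Zrsr1 was at 17.6 CPM (10.5 to 27.9) compared with 5.33 CPM from 18 counts, and Meg3 at 257.8 CPM.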
